A study of Gallus gallus with 16 samples.

Results

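The genes described here carry vitamin A and its derivatives, convert them or respond to them. RBP4, taken by its symbol, encodes a secreted retinol-binding protein. TTR travels with plasma retinol-binding protein in blood, and STRA6 is the membrane receptor for that plasma protein. RBP7 is a retinol carrier inside cells, LRAT, RDH11 and ALDH1A1 are enzymes, and RARB is a nuclear receptor for retinoic acid. All these genes were measured in RNA of chicken duodenum, the first stretch of the small intestine. Members were found by name: a probe set was taken where the platform annotation gave it exactly 1 gene symbol and that symbol was on the list. All 8 genes were found, with 12 probe sets, of 13009 such genes and 38439 probe sets in all. RBP4 was chosen by its difference in level between the lines at day 35, and the list as a whole was made with earlier results of these arrays known. Values of the line comparison at day 35, and of RBP4 in any comparison that uses those arrays, are therefore given as a description with no test.

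The 16 one-colour Affymetrix arrays fell into 4 groups of 4. Birds came from a population selected in opposite directions for residual feed intake, that is, feed intake above the amount predicted from maintenance and growth. The groups were the low residual feed intake line (LRFI) at day 42, the high line (HRFI) at day 42, LRFI at day 35 and HRFI at day 35. The labels give no sex, diet, hatch or scan batch, and whether the 4 arrays of a group stand for 4 birds is not stated. The p-values therefore rest on array-to-array spread that could in part be technical. Values are log2 expression from the robust multi-array average (RMA), so a difference of 1 is a doubling.

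Vitamin A reaches the duodenum as retinyl ester and as carotenoids from feed. Enterocytes take up retinol, bind it to cellular retinol-binding proteins, esterify it through LRAT and pack the ester into lipoproteins, while other enzymes oxidize retinol to retinal and retinal to retinoic acid. Retinol stored in liver leaves it bound to plasma retinol-binding protein, which travels in a complex with transthyretin (TTR), and retinoic acid switches genes on or off through receptors such as RARB.

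Array medians lay between 5.05 and 5.11. Pancreatic acinar genes, a list of 11 measured genes, averaged 11.38 on the second LRFI array of day 42 and 13.93 on the third HRFI array of day 35, against 4.78 to 5.82 on the other 14 arrays. Hepatocyte genes, a list of 14 of which 13 were measured, averaged 8.85 on that same LRFI array and 8.07 on the first HRFI array of day 35, against 5.73 to 7.10 on the other 14. The 3′ minus 5′ difference of the actin controls was over 1, which can be a sign of shortened RNA or cDNA, on HRFI day 42 replicate 4, LRFI day 35 replicates 3 and 4 and HRFI day 35 replicates 2 and 3 (1.13 to 2.07), against 0.19 to 0.50 on the other 11 arrays. The same difference of the GAPDH controls did not set these arrays apart, at 0.05 to 0.26 against 0.11 to 0.40 on the other 11. Enterocyte genes were high on every array, with a mean of 10 genes of 11.86 to 12.04 in LRFI at day 42, 11.81 to 11.94 in HRFI at day 42, 11.91 to 12.003 in LRFI at day 35 and 11.70 to 11.86 in HRFI at day 35. RNA of a whole tissue cannot tell fewer cells of a type from less RNA per cell.

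Group means of RBP4, TTR, RDH11 and ALDH1A1 differed most among the members, while those of STRA6, LRAT and RARB lay closer together. RBP4 was high in LRFI at day 35 alone. TTR had its lowest mean in that same group and its highest in HRFI at day 35. RDH11 and ALDH1A1 averaged more at day 42 than at day 35 in both lines. None of these differences passed an adjusted p of 0.05 in limma over all 38439 probe sets where a test was made.

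**Figure D1:**
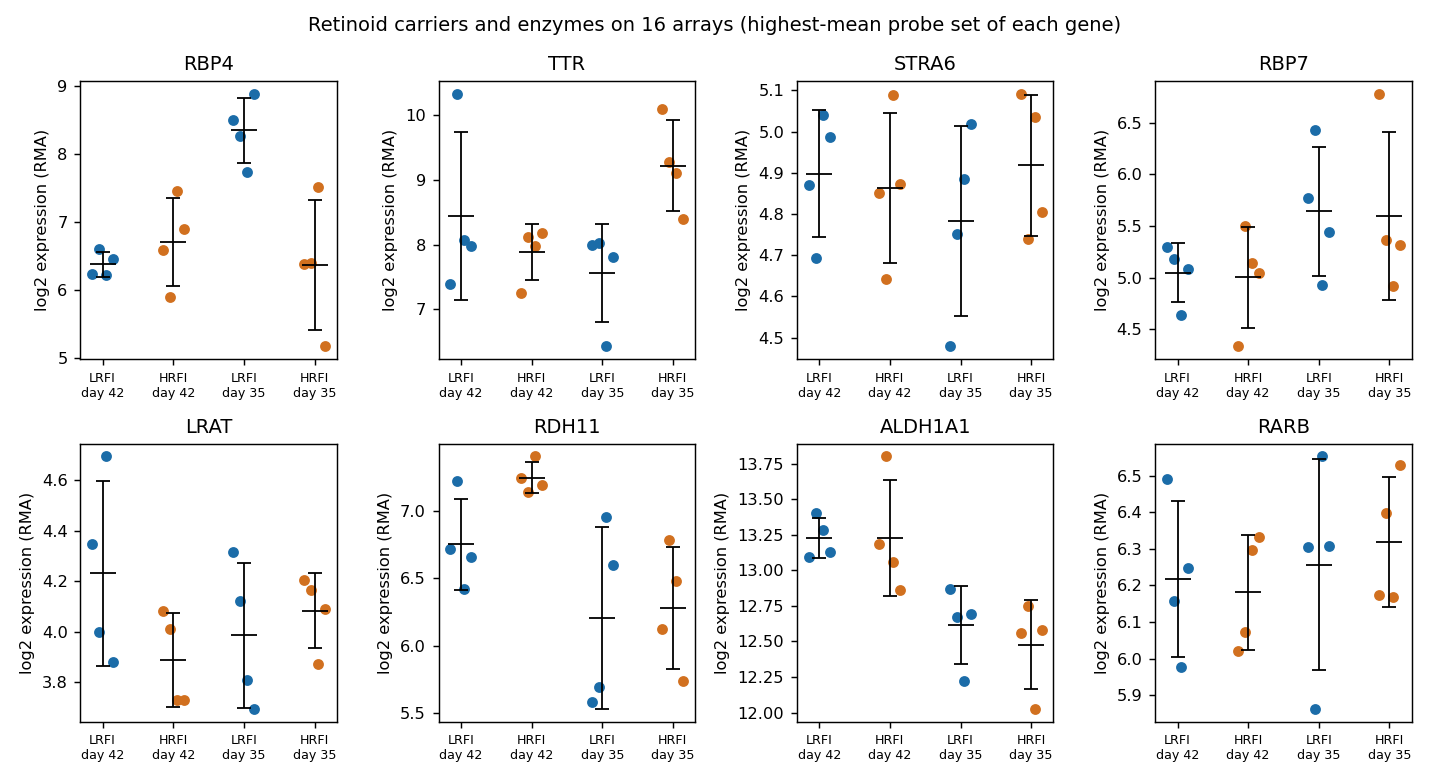
Log2 expression (RMA) of each gene, by its probe set of highest mean, on 16 arrays, with LRFI in blue and HRFI in orange, the mean as a long bar and 1 SD as whiskers (n = 4 each). Each panel has its own y axis, which does not start at 0. The 4 LRFI day 35 points of RBP4, from 7.74 to 8.89, lie above the 12 others. All 8 ALDH1A1 points of day 42 lie at 12.86 or more, a level that LRFI day 35 replicate 1, at 12.87, also reaches.

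RBP4 encodes a secreted retinol-binding protein. The probe set (Gga.832.1.S1_at, Entrez gene 396454) read 6.23, 6.60, 6.21 and 6.46 in LRFI at day 42, against 6.59, 5.89, 7.45 and 6.90 in HRFI at day 42. At day 35 it read 8.50, 8.27, 7.74 and 8.89 in LRFI, against 6.38, 6.40, 7.52 and 5.17 in HRFI. The LRFI day 35 arrays did not overlap any other group, and the groups at day 42 overlapped. Group means were 6.38 ± 0.19 in LRFI and 6.71 ± 0.65 in HRFI at day 42, and 8.35 ± 0.48 in LRFI and 6.37 ± 0.96 in HRFI at day 35 (SD, n = 4 each). LRFI at day 35 was first in level, followed by HRFI at day 42, LRFI at day 42 and HRFI at day 35, and the 3 lower means lay closer to each other than the SD of HRFI at either age. The line difference at day 35 was 1.98 (SE 0.39), or 3.96-fold, which is the value that put RBP4 on the list. The 12 arrays outside LRFI day 35 spread from 5.17 to 7.52, with a mean of 6.48 ± 0.64 (SD). Over the 16 arrays RBP4 spanned 3.72, a span that 99.6% of probe sets did not exceed. Both ends of that span, 8.89 and 5.17, were day 35 arrays of the comparison that chose the gene. The rank is therefore not independent of that choice.

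The day 42 arrays were not used to choose RBP4. There the LRFI minus HRFI difference was −0.33 (SE 0.39, 95% interval −1.17 to 0.51, limma adjusted p = 0.963), and the groups overlapped. It was −0.60 to −0.08 when each array was left out in turn. Between the ages RBP4 differed by −1.97 (day 42 minus day 35, SE 0.39) in LRFI and by 0.34 (SE 0.39) in HRFI, and the line difference at day 42 minus that at day 35 was −2.32 (SE 0.56). The HRFI value was −0.06 without HRFI day 35 replicate 4 and 0.73 without HRFI day 35 replicate 3, so its sign rests on 1 array. These 3 values share the day 35 arrays with the value that chose the gene.

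Since the LRFI and HRFI arrays did not overlap at day 35, leaving out arrays could not change the sign of the RBP4 value. The size of that value depended on single HRFI arrays. It was 1.59 without HRFI replicate 4, the array at 5.17, and 2.37 without HRFI replicate 3, the array with the highest pancreatic mean. It was 1.99 without the arrays high in hepatocyte genes, 2.57 without those high in hepatocyte or pancreatic genes, and 2.61 without the 5 arrays of high actin difference. Of the LRFI day 35 arrays, those of high actin difference stood at 7.74 and 8.89, and the others at 8.50 and 8.27. The mean of the enterocyte list did not overlap between the lines at day 35. It was 11.91 to 12.003 in LRFI and 11.70 to 11.86 in HRFI, with 10 of 10 genes measured. Single genes of the list differed. Only MTTP did not overlap, at 9.58 to 9.93 in LRFI and 8.67 to 9.40 in HRFI. All the other genes of the list overlapped, among them FABP6 (4.95 to 7.78 and 5.13 to 5.71) and SI (12.36 to 13.38 and 12.93 to 13.13). FABP6 read 7.11 and 7.78 on LRFI day 35 replicates 3 and 4, and 5.77 or less on every other array. The separation of the list means therefore rests in part on this dim gene. The mean of the enteroendocrine list (5 of 6 measured) was 8.86 to 9.03 in LRFI and 8.71 to 8.80 in HRFI, also without overlap. Yet every measured gene of that list overlapped by itself. CHGA read 11.13 to 12.31 in LRFI and 11.73 to 12.75 in HRFI, and CCK 8.71 to 9.38 and 8.0 to 8.82. The means of the pancreatic, hepatocyte, adipocyte, endothelial, smooth muscle, fibroblast, macrophage and proliferation lists overlapped between the lines at day 35. The part of the enterocyte or enteroendocrine list in the RBP4 difference was not tested.

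The name of this gene needs care in chicken. The RefSeq gene table (assembly GRCg7b, used for names and neighbours) gives the gene measured here RBP4B as a synonym, and places it beside PDE6B, ATP5I and SLC26A1 and overlapping IDUA. A separate gene, RBP4A (Entrez gene 396166), has RBP4 among its synonyms and lies beside PDE6C and FFAR4, the genes that flank RBP4 in mammals. The plasma role known for mammalian RBP4 therefore cannot be given to the gene measured here by its name. The 2 IDUA probe sets stayed between 3.13 and 3.51 and between 4.58 and 5.27 over the 16 arrays, with no high group like that of RBP4. Their means, 3.28 and 4.93, lay below the median of all probe set means, 5.07, so they carry little information on movement.

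RBP4A, which is not on the list, did not share the RBP4 pattern. Its probe set (Gga.4126.1.S1_at) read 4.14, 8.35, 5.88 and 4.82 in LRFI at day 42, against 4.13, 4.41, 3.86 and 4.13 in HRFI at day 42. Its day 35 readings were 4.19, 4.75, 4.04 and 3.95 in LRFI, against 7.42, 5.12, 4.01 and 4.36 in HRFI. The 2 highest arrays, LRFI day 42 replicate 2 and HRFI day 35 replicate 1, were the ones highest in hepatocyte genes. The line difference at day 42 was 1.66 (SE 0.75, limma adjusted p = 0.888), and it was 0.81 without LRFI replicate 2.

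TTR encodes transthyretin, which binds retinol-binding protein in plasma and also carries thyroid hormone. Its brighter probe set (Gga.2620.1.S1_at) read 7.40, 10.33, 8.07 and 7.98 in LRFI at day 42, against 7.25, 8.12, 7.98 and 8.18 in HRFI at day 42. The values at day 35 were 7.99, 8.02, 6.42 and 7.81 in LRFI, against 10.09, 9.28, 9.11 and 8.39 in HRFI. The lines did not overlap at day 35, with every HRFI array above every LRFI array, and overlapped at day 42, where LRFI replicate 2 stood alone at 10.33. Means were 8.44 ± 1.29 in LRFI and 7.88 ± 0.43 in HRFI at day 42, and 7.56 ± 0.76 in LRFI and 9.22 ± 0.70 in HRFI at day 35 (SD, n = 4 each). In order of level, HRFI at day 35 came first, then LRFI at day 42, HRFI at day 42 and LRFI at day 35, and neighbours in that order differed by less than the larger of their SDs.

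The line difference of TTR at day 35 was −1.66 (SE 0.53), or 3.16-fold lower in LRFI, opposite in sign to RBP4. Among all probe sets, 0.994% had every LRFI array above every HRFI array at day 35, as RBP4 did, and 1.88% had every one below, as TTR did. At day 42 the TTR difference was 0.56 (SE 0.53, 95% interval −0.56 to 1.68, limma adjusted p = 0.957), and it was −0.07 without LRFI replicate 2. Day 42 minus day 35 was 0.88 in LRFI (SE 0.53, adjusted p = 0.602), which was 0.25 without LRFI day 42 replicate 2, and −1.34 in HRFI (SE 0.53, adjusted p = 0.523), where the ages did not overlap. The second TTR probe set (Gga.10181.1.S1_at) read 2.97 to 3.49 over the 16 arrays, with group means of 3.27 to 3.29, and at so low a signal it carries little information on movement in either direction.

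TTR and RBP4A were highest on the 2 arrays where hepatocyte genes were highest. ALB, the hepatocyte gene for serum albumin, read 6.96, 12.03, 9.71 and 7.49 in LRFI at day 42, against 6.21, 6.16, 4.35 and 4.71 in HRFI at day 42. In the day 35 arrays it read 7.01, 8.55, 3.98 and 4.72 in LRFI, against 11.24, 8.61, 5.19 and 4.03 in HRFI. Of the 13 hepatocyte genes, 10 on LRFI day 42 replicate 2 and 9 on HRFI day 35 replicate 1 stood over 1 above their median of the 16 arrays. LRFI day 42 replicate 3 had 5 such genes, a list mean of 7.10 and RBP4A at 5.88. It was kept when the 2 arrays highest in hepatocyte genes were left out. The list averaged 6.22 to 8.85 in LRFI and 5.73 to 6.06 in HRFI at day 42, and 5.98 to 6.63 in LRFI and 5.88 to 8.07 in HRFI at day 35. AHSG, another liver gene, was 8.22 and 7.75 on the LRFI day 42 and the HRFI day 35 array that were highest for ALB. HRFI day 35 replicates 3 and 4 had hepatocyte means of 5.88 and 5.90 with TTR at 9.11 and 8.39, both above all 4 LRFI day 35 arrays. Of these, replicate 3 had the highest pancreatic mean, 13.93, and LRFI day 42 replicate 2 had the other high one, 11.38. Without the 2 arrays high in hepatocyte genes, an exclusion chosen after seeing the data, the TTR difference was −1.37 at day 35, and the line by age difference was 1.30, against 2.22 (SE 0.75) with all arrays. RBP4 read 6.60 and 6.38 on those same 2 arrays, within the range of the others. Over the settings other than single arrays left out, the TTR difference at day 35 was −1.70 to −1.24, and the line by age difference 1.21 to 2.23. The part of hepatocyte or pancreatic RNA in the TTR and RBP4A values was not tested further.

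**Figure D2:**
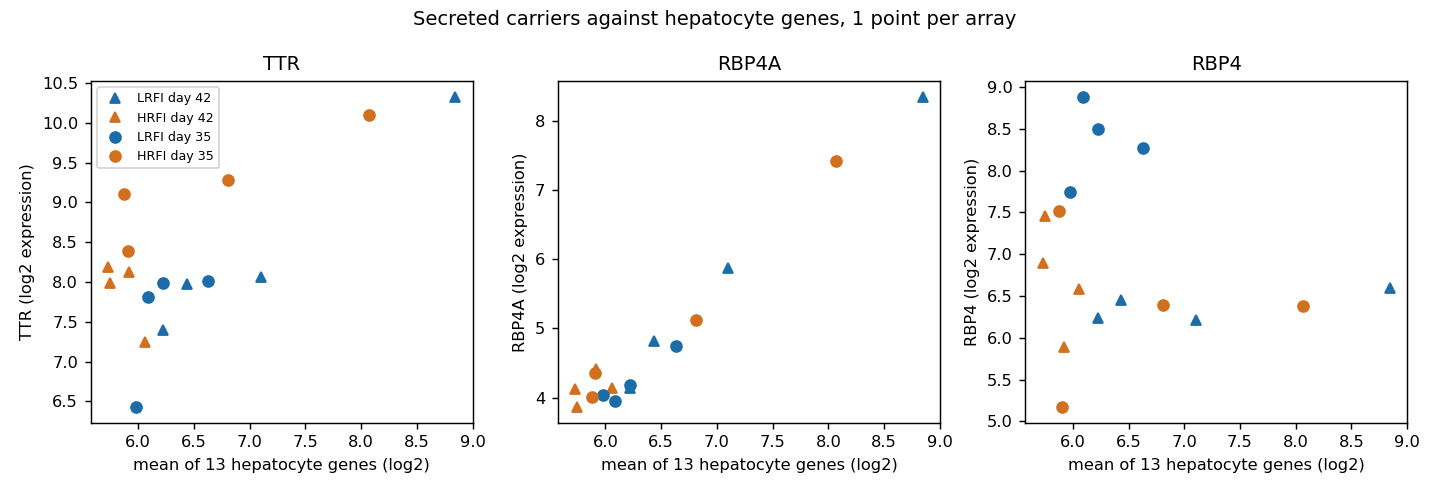
Log2 expression of TTR, RBP4A and RBP4 (y axes) against the mean log2 value of 13 hepatocyte genes (x axis), 1 point per array, with LRFI in blue, HRFI in orange, day 42 as triangles and day 35 as circles. TTR and RBP4A are highest on the 2 arrays with hepatocyte means of 8.85 and 8.07, where RBP4 stands at 6.60 and 6.38, and the 4 highest RBP4 arrays have hepatocyte means of 5.98 to 6.63.

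STRA6 encodes the membrane receptor that takes retinol from its plasma carrier into cells. Its probe set (Gga.7473.1.S1_at) read 4.48 to 5.09 over the 16 arrays, with means of 4.90 ± 0.15 in LRFI and 4.86 ± 0.18 in HRFI at day 42, and 4.78 ± 0.23 in LRFI and 4.92 ± 0.17 in HRFI at day 35 (SD, n = 4 each). All 4 groups overlapped. The line difference at day 42 was 0.03 (SE 0.13, 95% interval −0.24 to 0.31, limma adjusted p = 0.991). Day 42 minus day 35 was 0.11 in LRFI (adjusted p = 0.805) and −0.05 in HRFI (adjusted p = 0.948). The mean of the STRA6 probe set, 4.87, lay below the median of all probe set means, 5.07, where differences are compressed.

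RBP7 belongs to the cellular retinol-binding proteins, which hold retinol in the cytosol, and in mouse it is known from fat and the endothelium of small vessels. Its brighter probe set (Gga.9386.1.S1_at) read 5.30, 5.18, 4.64 and 5.08 in LRFI at day 42, against 4.33, 5.50, 5.14 and 5.04 in HRFI at day 42. At day 35 its values were 5.77, 6.43, 4.93 and 5.44 in LRFI, against 6.78, 5.36, 4.92 and 5.32 in HRFI. The lines overlapped at both ages, and the 2 highest arrays, HRFI replicate 1 and LRFI replicate 2, were both of day 35. The line difference at day 42 was 0.04 (SE 0.37, 95% interval −0.73 to 0.82, limma adjusted p = 0.997). Day 42 minus day 35 was −0.59 in each line (adjusted p = 0.612 in LRFI and 0.720 in HRFI) and −0.59 (SE 0.26, adjusted p = 0.384) averaged over both. A single array weighed on each: the value was −0.33 in LRFI without LRFI day 35 replicate 2 and −0.20 in HRFI without HRFI day 35 replicate 1, the 2 highest arrays.

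The second RBP7 probe set (GgaAffx.1722.2.S1_s_at) read 3.86 to 4.48, with a line difference at day 42 of −0.17 (SE 0.12, limma adjusted p = 0.930). Its age differences were −0.26 in LRFI (adjusted p = 0.503) and 0.08 in HRFI (adjusted p = 0.913), at a signal too low to set a direction beside that of the first. Endothelial genes, a list of 8 that were all measured, averaged 7.28 and 7.08 on the LRFI and the HRFI day 35 array where RBP7 was highest. They averaged 7.44 on HRFI day 35 replicate 4, where RBP7 was 5.32. Adipocyte genes, 7 of 7 measured, averaged 8.24 to 8.49 in LRFI and 7.94 to 8.05 in HRFI at day 42, and 7.99 to 8.62 in LRFI and 7.94 to 8.58 in HRFI at day 35. On the arrays of highest RBP7 they averaged 8.14 in LRFI and 8.58 in HRFI. FABP4, a fatty acid carrier of fat cells, was at its highest, 8.65, on that HRFI array, and no other gene of the list was. ADIPOQ, another gene of the list, read 8.52 there and was highest, 9.49, on HRFI day 35 replicate 4. The part of fat or vessel RNA in the RBP7 values was not tested.

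LRAT makes retinyl esters from retinol, the form in which the gut exports vitamin A. Its probe set (Gga.12057.1.S1_at) read 4.35, 4.0, 4.69 and 3.88 in LRFI at day 42, against 4.08, 4.01, 3.73 and 3.73 in HRFI at day 42. At day 35 the probe set read 4.32, 4.12, 3.81 and 3.69 in LRFI, against 4.20, 4.16, 3.87 and 4.09 in HRFI. The lines overlapped at both ages. The difference at day 42 was 0.34 (SE 0.17, 95% interval −0.02 to 0.70, limma adjusted p = 0.903), and it was 0.19 without LRFI replicate 3, the highest array. Day 42 minus day 35 was 0.25 in LRFI (adjusted p = 0.659) and −0.19 in HRFI (adjusted p = 0.812). The mean of the LRAT probe set, 4.05, lay below the median of all probe set means, 5.07. At so low a signal it carries little information on movement in either direction.

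RDH11 encodes a retinol dehydrogenase of the endoplasmic reticulum that in mammals mainly reduces retinal. Its probe set (Gga.2472.1.S1_at) read 6.72, 7.22, 6.42 and 6.66 in LRFI at day 42, against 7.25, 7.14, 7.41 and 7.19 in HRFI at day 42. At day 35 the readings were 5.58, 5.69, 6.96 and 6.60 in LRFI, against 6.13, 6.78, 6.48 and 5.74 in HRFI. The HRFI day 42 arrays lay above every HRFI array of day 35, while in LRFI the ages overlapped. Means were 6.75 ± 0.34 in LRFI and 7.25 ± 0.11 in HRFI at day 42, and 6.21 ± 0.68 in LRFI and 6.28 ± 0.45 in HRFI at day 35 (SD, n = 4 each).

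Averaged over the lines, RDH11 was 7.0 ± 0.35 at day 42 and 6.25 ± 0.53 at day 35 (SD, n = 8 each), a difference of 0.76 (SE 0.20, limma adjusted p = 0.173). Within the lines it was 0.55 in LRFI (SE 0.28, adjusted p = 0.539) and 0.96 in HRFI (SE 0.28, adjusted p = 0.369). The line difference at day 42 was −0.49 (SE 0.28, 95% interval −1.09 to 0.10, adjusted p = 0.917).

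RDH11 at day 35 split by the actin control, and the share of all probe sets that did so was not counted. The split can therefore not be called particular to RDH11. The 4 day 35 arrays with actin differences over 1 read 6.48 to 6.96 and the other 4 read 5.58 to 6.13, while HRFI day 42 replicate 4, the only such array of day 42, read 7.19 beside 7.14 to 7.41 on the other 3 HRFI arrays of that age. Without the 5 arrays the age difference was 1.23 averaged over the lines (limma adjusted p = 0.0190) and 1.12 in LRFI (adjusted p = 0.298). The average was the only member difference that passed under any setting tried. At day 35 that setting kept only LRFI replicates 1 and 2 and HRFI replicates 1 and 4. These were the day 35 arrays of each line lowest in RDH11, so the age difference had to widen. Fitting the actin difference as a covariate to the 16 arrays gave an average of 1.003 (adjusted p = 0.110). The GAPDH controls did not set the 5 arrays apart, and what part RNA or cDNA length has in the RDH11 values was not tested.

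**Figure D3:**
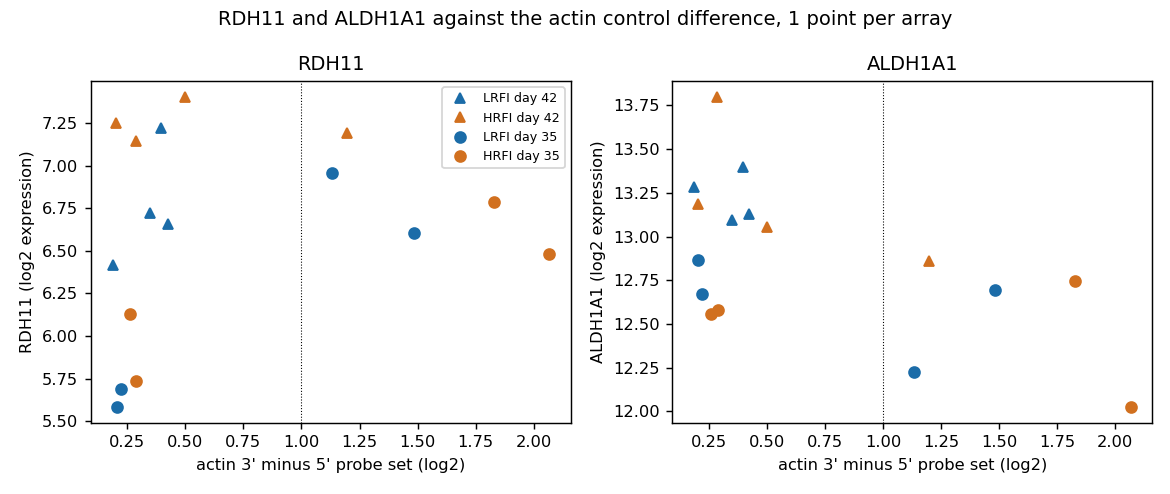
Log2 expression of RDH11 and ALDH1A1 (y axes) against the 3′ minus 5′ difference of the actin control probe sets (x axis, log2), 1 point per array, with LRFI in blue, HRFI in orange, day 42 as triangles and day 35 as circles, and a dotted line at 1. Right of the line the day 35 points of RDH11 lie at 6.48 to 6.96, left of it at 5.58 to 6.13, and the day 35 points of ALDH1A1 lie at 12.02 to 12.75 right of it and 12.56 to 12.87 left of it.

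ALDH1A1, or retinal dehydrogenase, oxidizes retinal to retinoic acid and also other aldehydes. Its probe set (Gga.4119.1.S1_at) read 13.10, 13.40, 13.28 and 13.13 in LRFI at day 42, against 13.19, 13.80, 13.06 and 12.86 in HRFI at day 42. Its values at day 35 were 12.87, 12.67, 12.23 and 12.69 in LRFI, against 12.56, 12.75, 12.02 and 12.58 in HRFI. In each line all 4 arrays of day 42 lay above all 4 of day 35, and the lines overlapped at each age. Across the lines the ages overlapped, with LRFI day 35 replicate 1 at 12.866 and HRFI day 42 replicate 4 at 12.863. Means were 13.23 ± 0.14 in LRFI and 13.23 ± 0.41 in HRFI at day 42, and 12.61 ± 0.27 in LRFI and 12.48 ± 0.31 in HRFI at day 35 (SD, n = 4 each).

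Day 42 minus day 35 for ALDH1A1 was 0.61 in LRFI (SE 0.19, limma adjusted p = 0.334) and 0.75 in HRFI (SE 0.19, adjusted p = 0.330). The average over both lines was 0.68 (SE 0.14, 95% interval 0.39 to 0.97, adjusted p = 0.101), or 1.60-fold, with 0.59 to 0.74 when each array was left out in turn. Over the settings other than single arrays left out, the average was 0.56 to 0.68, lowest without the arrays high in hepatocyte or pancreatic genes. With all arrays the average missed the threshold adjusted over all probe sets. The line difference at day 42 was under 0.01 (SE 0.19, 95% interval −0.41 to 0.41, adjusted p = 0.999).

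RARB encodes retinoic acid receptor beta, and in mammals the gene is itself switched on by retinoic acid. It had 3 probe sets, which read 5.86 to 6.55 (Gga.2668.2.S1_at), 4.63 to 5.60 (Gga.2668.1.S1_a_at) and 4.09 to 4.87 (Gga.2668.4.S1_a_at) over the 16 arrays. The first averaged 6.22 ± 0.21 in LRFI and 6.18 ± 0.16 in HRFI at day 42, and 6.26 ± 0.29 in LRFI and 6.32 ± 0.18 in HRFI at day 35 (SD, n = 4 each). The groups overlapped on all 3. Line differences at day 42 were 0.04, 0.19 and 0.05 (limma adjusted p = 0.991, 0.953 and 0.988). Age differences were −0.07 to −0.01 in LRFI and −0.28 to −0.14 in HRFI, with adjusted p of 0.706 to 0.986.

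Over the members, 0 of the 12 probe sets passed for the line at day 42, where 0.0026% of all probe sets did, and 0 had an unadjusted limma p under 0.05, where 5.57% of all did. Their median difference was 0.04, against −0.01 over all probe sets, with 8 of 12 above 0, where 47.2% of all probe sets were. For age, counted without RBP4, 0 of 11 probe sets passed in LRFI and 0 in HRFI, where 0% of all passed in each, and 0 passed on the average, where 0.0026% of all did. At an unadjusted p under 0.05, limma gave 2 of 11 in LRFI against 9.83% of all, 3 in HRFI against 8.28%, and 3 on the average against 11.8%. The HRFI count includes TTR, whose high HRFI day 35 arrays also gave its line difference of that day, so it is not independent of that difference.

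Groups that did not overlap were counted in the same way. At day 42, 0 of the 12 had lines that did not overlap, against 1.74% of all probe sets higher and 2.69% lower in LRFI. Between the ages, ALDH1A1 in LRFI and ALDH1A1 and RDH11 in HRFI were higher without overlap at day 42, against 2.15% of all probe sets in LRFI and 2.12% in HRFI. RBP4 in LRFI and TTR in HRFI were lower without overlap, against 2.83% in LRFI and 2.46% in HRFI. The comparisons of age share their day 35 arrays with the line comparison of that day. With RBP4 among them, 33 probe sets, 0.0859% of all, had the 4 LRFI day 35 arrays above the other 12.

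**Figure D4:**
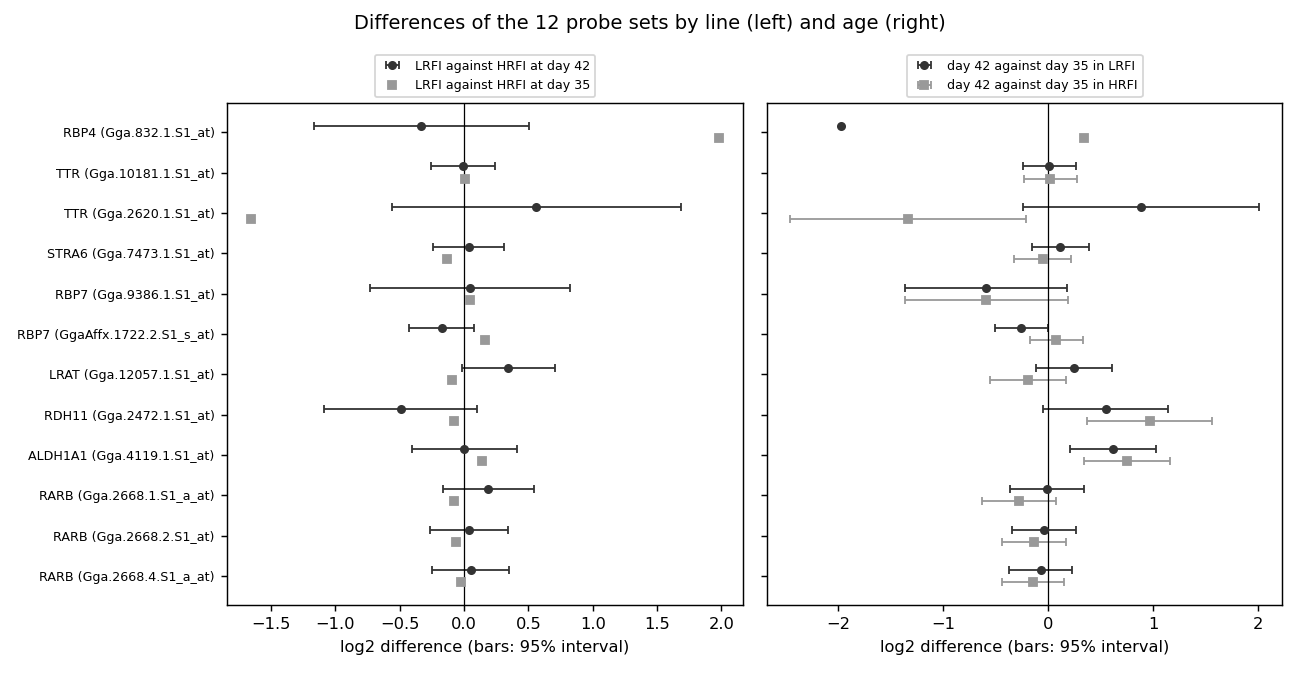
Log2 differences of the 12 probe sets, with LRFI minus HRFI at day 42 (dark circles) and day 35 (grey squares) on the left and day 42 minus day 35 in LRFI (dark circles) and HRFI (grey squares) on the right, and limma 95% intervals, not adjusted for the number of probe sets, as bars. Points with no bar are values that the choice of members used: the line differences at day 35, 1.98 for RBP4 and −1.66 for TTR, and the age differences of RBP4. The age differences with bars also use the day 35 arrays.

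The wider vitamin A pathway was read from a list of 56 further genes, of which 39 were measured by 69 probe sets, each gene by its probe set of highest mean. In limma 0 of 39 passed for the line at day 42 or for age in either line or on the average. At day 42, 17 lay above 0 and 22 below in LRFI against HRFI, with a median of −0.04, and 1 of 39 had an unadjusted p under 0.05, where 5.57% of all probe sets did. For age in LRFI 18 lay above 0 and 21 below, and 7 of 39 had such a p, where 9.83% of all did. For age in HRFI 21 lay above 0 and 18 below, and 3 of 39 had such a p, where 8.28% of all did. For the lines at day 35, 20 lay above 0 and 19 below, a description with no test.

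RBP2 is the cellular retinol-binding protein of the enterocyte, which hands retinol to LRAT. It read 13.85, 13.84, 13.92 and 13.83 in LRFI at day 42, against 13.67, 13.82, 13.66 and 13.76 in HRFI at day 42. On the day 35 arrays it read 13.93, 13.90, 13.88 and 14.005 in LRFI, against 13.83, 13.80, 13.65 and 13.68 in HRFI. The LRFI arrays lay above the HRFI arrays at both ages, by small amounts. Of all probe sets, 1.74% had such an order at day 42 and 0.994% at day 35. At day 42 the lines were barely apart, with the lowest LRFI array at 13.828 and the highest HRFI array at 13.825. The difference of the means at day 42 was 0.13 (SE 0.07, limma adjusted p = 0.915). At day 35 the difference was 0.19 (SE 0.07), given with no test.

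BCO1, the enzyme that cleaves beta-carotene to retinal, read 12.32, 12.50, 12.36 and 12.84 in LRFI at day 42, against 12.20, 12.40, 12.52 and 12.33 in HRFI at day 42. The day 35 readings were 12.26, 12.13, 11.85 and 11.85 in LRFI, against 12.73, 12.23, 12.21 and 12.18 in HRFI. In LRFI the ages did not overlap, with a difference of 0.48 (SE 0.14, limma adjusted p = 0.321). Of all probe sets, 2.15% were higher without overlap at day 42 in LRFI. In HRFI the BCO1 difference between the ages was 0.02 (SE 0.14, limma adjusted p = 0.982). ISX, the intestinal regulator that in mammals represses BCO1, differed by 0.75 between the ages in HRFI (SE 0.36, adjusted p = 0.611). In LRFI the ISX means were 7.07 at day 42 and 6.80 at day 35. RBP5, another cellular retinol-binding protein, differed by −0.68 in LRFI (SE 0.18, adjusted p = 0.264) and by −0.52 on the average over both lines (SE 0.13, adjusted p = 0.170).

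RARRES2, which encodes the secreted protein chemerin, had the lowest p of the wider list for the average age difference, with 8.56 to 9.02 in LRFI and 8.71 to 8.96 in HRFI at day 42, and 8.97 to 9.80 in LRFI and 9.16 to 10.24 in HRFI at day 35. Its average age difference was −0.62 (SE 0.15, limma adjusted p = 0.162), and in HRFI alone it was −0.71 (SE 0.21, adjusted p = 0.383). ADH4, an alcohol dehydrogenase that can oxidize retinol, differed by 0.38 in HRFI (SE 0.12, adjusted p = 0.395). SDR16C5, a retinol dehydrogenase, differed by 0.24 on the average (SE 0.08, adjusted p = 0.254). CYP26A1, which breaks down retinoic acid, had the lowest p of the list for the line at day 42, at −0.24 (SE 0.08, adjusted p = 0.835), with a highest array of 3.47.

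The genes most like a member over the 16 arrays were named by Pearson's r among probe sets with 1 symbol, for the members whose group means differed by 1 or more. For RBP4 they were TMEM125 (0.81), CAPN9 (0.80), MTTPL (0.77), EMC6 (0.76) and STK24 (0.76). For RDH11 they were MMAB (0.89), PGP (0.85), TRAP1 (0.84), FASN (0.84) and NUDT9 (0.84). For TTR they were METTL5 (0.91), NAE1 (0.83), USP42 (0.82), TARSL2 (0.82) and UPRT (0.80). Several of these probe sets were dim and moved little: group means were 2.43 to 2.66 for METTL5, 3.09 to 3.44 for TARSL2, 3.10 to 3.25 for UPRT and 3.52 to 3.72 for MTTPL. Spearman's rho for the first of each was 0.74 for TMEM125, 0.87 for MMAB and 0.83 for METTL5. The arrays share normalization and groups, and the names were picked as the highest of all probe sets, so these values carry no test.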

How the data were processed

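Total RNA of chicken duodenum was measured on 16 one-colour arrays, 4 per group. The deposited log2 values came from Partek 6.5 and RMA, per the submitters' processing notes. Total RNA was extracted with Trizol, per the labels' protocols. RMA normalizes between arrays and compresses differences of dim probe sets. The values were used as deposited, and 0 columns were left unmapped. Tests covered 38439 probe sets, all but 96 controls.

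Groups were compared on the 16 arrays, with a mean for each, in limma 3.58.1 (lmFit, eBayes) in R 4.3.3 (tables were read with the package data.table, version 1.17.8). Benjamini-Hochberg adjustment ran over all 38439 probe sets, with a threshold of 0.05. The code was tested on simulated data. The platform annotation gave 27168 probe sets 1 symbol, 177 several and 11094 none.

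The members and lists were chosen with earlier results of these data known. Named genes were every member probe set, RBP2, BCO1, the 4 genes of lowest p per comparison in the wider list (some of them shown), and the 5 genes most like RBP4 and each other member whose group means differed by 1 or more. RBP4A, IDUA and single hepatocyte genes were added after their values were seen. Alternatives were a replicate block, trended robust variances, a filter on the mean, the mean of a gene's probe sets, the actin covariate, only the arrays compared, and leaving out arrays. Arrays have no read depth, and their number limits the precision. No sequence is shown.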

Additional observations from a re-analysis of the deposited data

Results flagged for a closer look

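TTR on LRFI day 35 replicate 3 read 6.42, and the other 3 arrays of that group read 7.81 to 8.02, a gap of 0.868 of the group's whole range. BCO1 on HRFI day 35 replicate 1 read 12.73, and the other 3 read 12.18 to 12.23, a gap of 0.901 of the range. In a group of 4, a gap above Dixon's 95% critical value marks a sample far from the others, and chance marks about 1 group in 20. Of 76 groups examined here, 2 (2.63%) had such a sample.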

How the results depend on the processing

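Of 2043 differences of member probe sets recomputed under alternatives, 2028 kept their side of the threshold and moved by less than the spread between arrays, 14 moved by more, and 1, RDH11 between the ages without the actin arrays, came to pass. The replicate block, trended robust variances, the filter and the fit of only 8 arrays leave a difference itself unchanged. So does leaving out an array outside the comparison. Most differences could therefore move little, and these counts do not measure robustness. The count of all probe sets passing for the line at day 42 was 1, and 0 with the replicate block, trended robust variances, the filter on the mean, or without the pancreatic, actin, hepatocyte, or hepatocyte and pancreatic arrays, and 5 with only its 8 arrays. For the average age difference it was 1, and 19 with the replicate block, 6 with trended robust variances, 25 with the filter, 9 without the actin arrays, and 0 with the actin covariate or without the pancreatic, hepatocyte, or hepatocyte and pancreatic arrays. For age in HRFI it was 0, and 11 with the replicate block and 1 with only its 8 arrays. For age in LRFI it was 0, and 1 without the actin arrays. For the average line difference it was 0, and 1 with the replicate block or without the actin arrays. With 1 array left out it was 0 to 5 for the line at day 35, 0 to 1 for the line at day 42 and for the average line difference, 0 to 33 for age in LRFI, 0 to 1 for age in HRFI, 0 to 45 for the average age difference and 0 to 8 for the interaction. The cause was not tested. Both highest counts, 33 and 45, came without LRFI day 35 replicate 1.

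The labels do not say whether equal replicate numbers pair the arrays, and no pairing was seen in the values. Deviations of arrays with the same number had a median correlation of −0.048 over 24 pairs (−0.311 to 0.330), and arrays with other numbers one of 0.024 over 72. Such correlations cannot exclude a pairing. With the replicate block no member passed, and the lowest adjusted p was 0.0583, for ALDH1A1 on the average age difference. Of the 12 member probe sets, 6 had means below the median of all probe set means, 5.07, where RMA compresses differences.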
